A study of Arabidopsis thaliana with 9 samples.

Results

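DFR, UF3GT, AT4G14090 and UGT78D2 encode enzymes of the late part of anthocyanin and flavonoid synthesis in Arabidopsis thaliana. Each of the 4 genes is named alone by 1 probe set of the array, so they make up 4 of the 22746 probe sets tested, and all 4 are described here with no filter on signal. Transcripts were measured on 9 Affymetrix arrays from seedlings of the ecotype labelled col 1, kept untreated on antibiotic-free MS medium until an age of 21 days. The arrays fall into untransformed wild type (3 arrays), transgenic line 22 expressing the rice gene OsSAP11 (3 arrays) and transgenic line 25 expressing the rice gene OsRLCK253 (3 arrays). OsSAP11 encodes a stress-associated zinc-finger protein and OsRLCK253 a receptor-like cytoplasmic kinase. The promoter that drives each transgene is not given in the sources used here. Each transgene is represented by 1 line, so an effect of the line and an effect of its transgene cannot be told apart, and transcripts of the transgenes were not analysed here. The replicates are called biological in the labels, with nothing on separate cultures, so the spread between them may in part be technical.

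Anthocyanins are red to purple pigments of the vacuole that seedlings make under strong light, cold, sugar excess or nutrient shortage. Their synthesis starts from the phenylpropanoid pathway, runs through the early flavonoid enzymes that also serve the colourless flavonols, and then branches at dihydroflavonol reductase. Sugars are attached to the unstable anthocyanidin, and acyl groups are then added to those sugars. In Arabidopsis the late genes are switched on together by complexes of MYB, bHLH and WD40 proteins, and small MYB proteins with a single repeat compete for a place in these complexes.

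DFR (AT5G42800) encodes dihydroflavonol reductase, the enzyme that commits a dihydroflavonol to the anthocyanin branch. UF3GT (AT5G54060, also called UGT79B1) encodes a glycosyltransferase that adds xylose to the glucose already carried by the anthocyanin. AT4G14090 encodes a glucosyltransferase that adds a further glucose to anthocyanins. UGT78D2 (AT5G17050) encodes the glucosyltransferase that attaches the first glucose, and it acts on flavonols as well as on anthocyanidins, so that it serves both branches.

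All 4 transcripts had their lowest mean in wild type, an intermediate mean in the OsSAP11 line and the highest mean in the OsRLCK253 line. DFR, UF3GT and AT4G14090 rose in both lines. The rise was 3.48-fold to 4.43-fold in the OsSAP11 line, whereas the OsRLCK253 line had a rise of 6.61-fold to 9.06-fold. UGT78D2 rose 2.03-fold in the OsRLCK253 line, and its 1.21-fold difference in the OsSAP11 line did not pass the test. Between the 2 lines the test was passed by UGT78D2 alone, which was 1.67-fold lower in the OsSAP11 line. These folds are of signals with 16 added, which makes them smaller for dim probe sets. Arrays of whole seedlings cannot tell more RNA per cell from more cells that contain the RNA.

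The tests come from a limma model fitted to log2(signal + 16) of all 22746 probe sets, with p-values adjusted over all of them by the Benjamini-Hochberg method. A call is an adjusted p under 0.05. The median signal per array was 42.9 to 46.2, and signals under 16 made up 39.8% to 40.3% of each array. Transcripts of known amount are spiked in before hybridisation, and their mean log2 level was 9.80 to 10.02 on the wild type arrays, 9.67 to 9.73 on those of the OsSAP11 line and 9.70 to 9.94 on those of the OsRLCK253 line. The 3' to 5' log2 ratio of one pair of actin probe sets was 4.25 to 4.29, 4.53 to 4.66 and 4.43 to 4.61 in wild type, the OsSAP11 line and the OsRLCK253 line, respectively. In the other actin pair the 3 groups overlapped, with 1.07 to 1.39, 1.15 to 1.28 and 1.13 to 1.48. Wild type also lay below both lines in the ratio of a second set of GAPDH probe sets (-0.31 to -0.21 against -0.18 to -0.041) and of ubiquitin probe sets (-0.53 to -0.41 against -0.41 to -0.22), by a margin under 0.01 for ubiquitin, while the groups overlapped in the first set of each. The spike-in level of the OsSAP11 line lay below that of wild type on every array, and that of the OsRLCK253 line overlapped with both. The part of the measures that moved with the groups in the results was not tested. Of the 8 leaf markers, 3 were named alone by a probe set (RCA, PRK and LHCB4.2), with wild type mean signals of 18604, 7347 and 12107. All 3 rose in both lines, against 7.44% and 6.95% of all probe sets. The log2 differences were 0.24 to 0.74 in the OsSAP11 line and 0.24 to 0.78 for OsRLCK253. Of 8 root markers only PYK10 was named alone by a probe set. Its mean signals were 6783 (wild type), 6984 (OsSAP11 line) and 7994 (OsRLCK253 line), and it was not called. None of the 6 seed and 5 flower markers was named alone by a probe set. The annotation leaves 8730 probe sets without a name, so a marker not named may still be on the array.

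**Figure D1:**
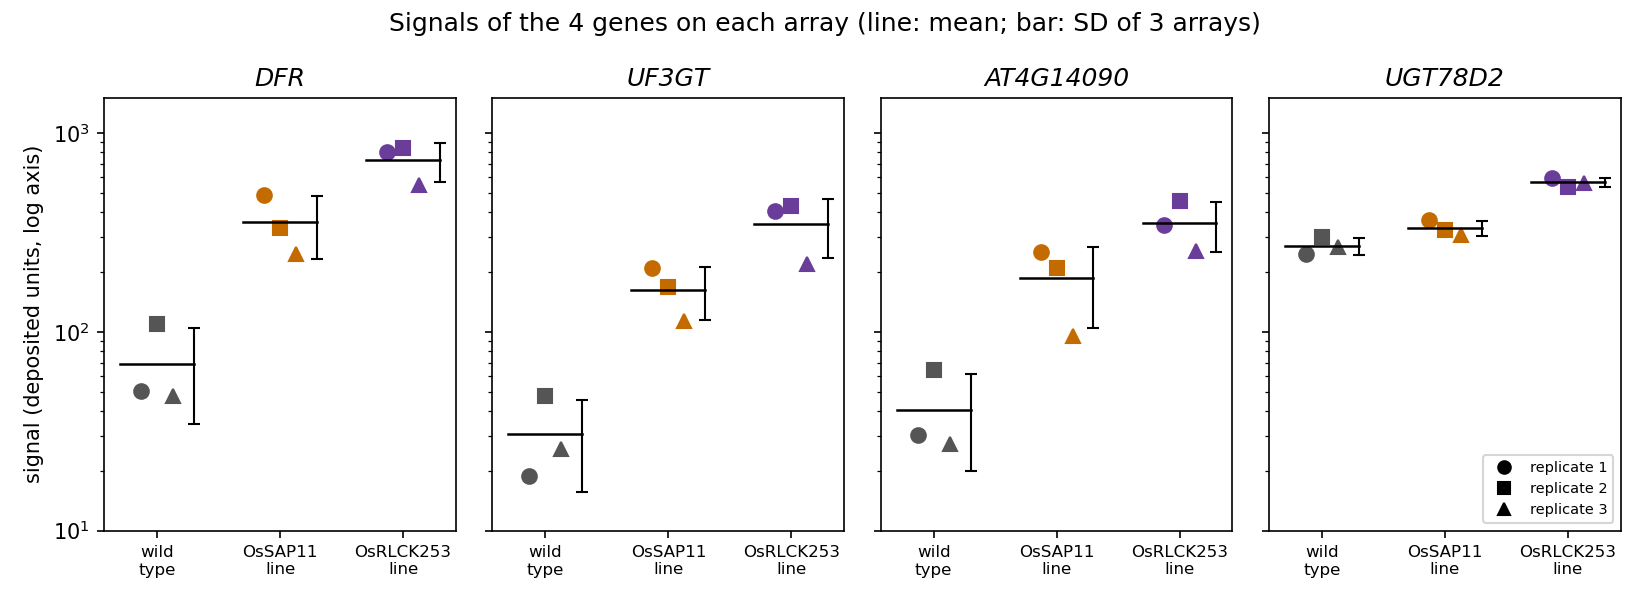
Signal of DFR, UF3GT, AT4G14090 and UGT78D2 (log axis) on each of the 3 arrays of wild type, the OsSAP11 line and the OsRLCK253 line, with the group mean as a line and the standard deviation of 3 arrays as a bar. The groups do not overlap in any panel, and UGT78D2 spans a narrower range than the other 3 genes.

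DFR had signals of 50.6, 109 and 47.4 on the wild type arrays 1, 2 and 3. They were 490, 332 and 245 in the OsSAP11 line, while the OsRLCK253 line had 805, 840 and 545. No array of one group reached into the range of another, and wild type array 2 was the high one of its group. The means were 69.1 ± 35.0 (SD, n = 3), 356 ± 124 and 730 ± 161. The log2 difference from wild type was 2.15 for the OsSAP11 line (95% interval 1.30 to 2.99, limma adjusted p = 0.0108) and 3.18 for the OsRLCK253 line (2.33 to 4.03, adjusted p = 0.00216). Among all probe sets tested these were the 15th and the 8th highest differences of their comparison. DFR kept its call in both lines under every alternative tried.

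UF3GT was the dimmest of the 4 in wild type, with signals of 18.8, 47.4 and 25.6, the lowest of them close to the 16 added before the logarithm. The OsSAP11 line had 209, 168 and 113, and the OsRLCK253 line 404, 428 and 218. As for DFR, wild type array 2 was the highest of its group and array 3 the lowest of each line, and the groups did not overlap. The mean signal went from 30.6 ± 15.0 (SD, n = 3) to 163 ± 48.0 in the OsSAP11 line, a ratio of mean signals of 5.33, beside a fitted fold of 3.87 on the log2(signal + 16) scale. In the OsRLCK253 line it was 350 ± 115, a ratio of 11.5 beside a fitted fold of 7.82. The log2 differences were 1.95 (95% interval 1.12 to 2.79, limma adjusted p = 0.0145) and 2.97 (2.13 to 3.80, adjusted p = 0.00264). The call in the OsSAP11 line was lost without OsSAP11 array 1, OsSAP11 array 2 or wild type array 1, with limma adjusted p = 0.0514, 0.0515 and 0.0522 and differences of 1.77, 1.92 and 1.76.

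AT4G14090 had signals of 30.2, 64.1 and 27.1 in wild type. The OsSAP11 line had 253, 209 and 94.7, and the OsRLCK253 line 345, 454 and 256. The gap between neighbouring groups was narrow here. The highest array of the OsSAP11 line, 253, lay just under the lowest of the OsRLCK253 line, 256. The means were 40.5 ± 20.6 (SD, n = 3), 186 ± 81.8 and 352 ± 99.0. The OsSAP11 line differed from wild type by 1.80 on the log2 scale (95% interval 0.82 to 2.78, limma adjusted p = 0.0336), the highest adjusted p among the calls from wild type for the 4 genes. The call was lost in 5 of the 9 fits that left out 1 array. Without OsSAP11 array 1, OsSAP11 array 2, wild type array 1, wild type array 3 or OsRLCK253 array 1 the limma adjusted p was 0.102, 0.106, 0.109, 0.0982 and 0.0571, with differences of 1.54, 1.67, 1.68, 1.63 and 1.80. In the OsRLCK253 line the difference was 2.73 (1.75 to 3.70, adjusted p = 0.00674), and it was called in all 9 of these fits.

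UGT78D2 had signals of 246, 299 and 268 in wild type, against 363, 327 and 305 in the OsSAP11 line. In the OsRLCK253 line the signals were 594, 536 and 563. Its replicates lay closer together than those of the other 3 genes. The coefficient of variation was 5.08% to 9.68% in the 3 groups, against 22.1% to 50.8% for DFR, UF3GT and AT4G14090. The means were 271 ± 26.2 (SD, n = 3), 332 ± 29.1 and 564 ± 28.7. The OsRLCK253 line differed from wild type by 1.02 on the log2 scale (95% interval 0.82 to 1.22, limma adjusted p = 0.000748), which ranked 304th from the top. In the OsSAP11 line the difference was 0.28 (0.075 to 0.48, adjusted p = 0.0879), ranked 3031st, and was not called, although the 3 arrays of the line were above the 3 of wild type. With arrays centred on the hybridisation spike-ins it was 0.52 and was called, where the median of all probe sets moved from -0.0021 to 0.24.

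Of the 4 genes, 3 were called higher in the OsSAP11 line, against 7.44% of all probe sets tested. In the OsRLCK253 line 4 were called higher, against 6.95%. For all 4 genes the arrays of the OsSAP11 line lay above those of wild type, a pattern shared by 17.8% of all probe sets. The arrays of the OsRLCK253 line also lay above those of wild type for all 4, a pattern found in 34.0% of all probe sets. The median log2 difference of the 4 genes was 1.88 for the OsSAP11 line, against -0.0021 for all probe sets, and 2.85 for the OsRLCK253 line, against 0.014. Both comparisons use the same wild type arrays, so a low or high value there moves both. The 4 genes were chosen with earlier results of these data known. These counts and medians, and the counts between the lines below, are therefore descriptions and not a test.

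**Figure D2:**
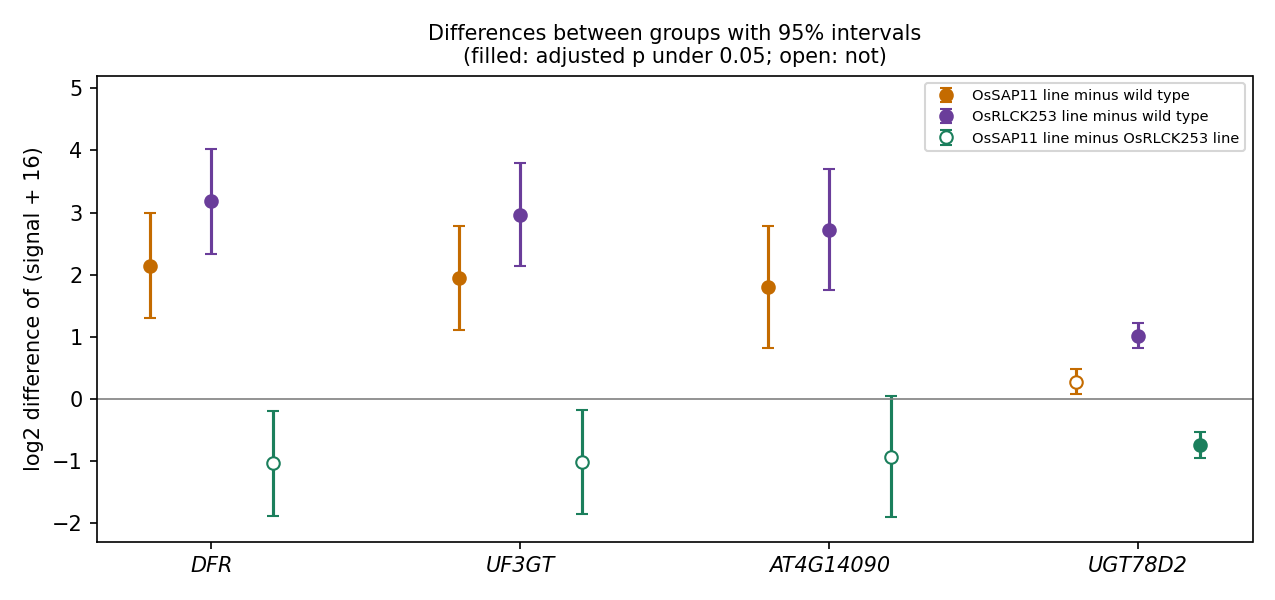
Log2 difference of (signal + 16) for the 4 genes in the 3 comparisons, with 95% intervals from limma, where filled points have an adjusted p under 0.05 and open points do not. The differences from wild type run from 0.28 to 3.18, and those of the OsSAP11 line from the OsRLCK253 line from -1.03 to -0.74.

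The direct comparison of the 2 lines asks whether the OsSAP11 line and the OsRLCK253 line hold different levels of these transcripts. UGT78D2 was lower in the OsSAP11 line by 0.74 on the log2 scale (log2 difference -0.74, 95% interval -0.94 to -0.54, limma adjusted p = 0.00913), with mean signals of 332 and 564. This call was kept in all 20 alternatives. For DFR the difference was -1.03 (-1.88 to -0.19, adjusted p = 0.139), with mean signals of 356 and 730. UF3GT had -1.01 (-1.85 to -0.18, adjusted p = 0.14) and AT4G14090 had -0.93 (-1.90 to 0.050, adjusted p = 0.204). The point estimates of these 3 genes were larger than that of UGT78D2, but their standard errors were 0.35 to 0.41 against 0.085, and none was called. With dim probe sets left out the limma adjusted p was 0.0303 for DFR and 0.031 for UF3GT, and with weights per array it was 0.0422 and 0.0256. So 1 of the 4 genes was called lower in the OsSAP11 line than in the OsRLCK253 line, against 1.87% of all probe sets. For all 4 genes the 3 arrays of the OsSAP11 line lay below the 3 of the OsRLCK253 line, but so did 37.5% of all probe sets.

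Within a group all 4 genes lay on the same side of their means on every array except OsSAP11 array 2 and OsRLCK253 array 2. On wild type array 2 all 4 were above the mean of their group, by 0.63 for DFR, 0.49 for UF3GT, 0.56 for AT4G14090 and 0.14 for UGT78D2 on the log2 scale, and on wild type arrays 1 and 3 all 4 were below it. On OsSAP11 array 1 all 4 were above, by 0.13 to 0.51, and on OsSAP11 array 3 all 4 were below, with deviations from -0.77 to -0.11. On OsRLCK253 array 3 the deviations were -0.39 for DFR, -0.59 for UF3GT and -0.40 for AT4G14090, with -0.0017 for UGT78D2. On OsRLCK253 array 1 all 4 were above, by 0.010 to 0.25. OsSAP11 array 2 split the genes, with 0.074 for UF3GT and 0.26 for AT4G14090 against -0.043 for DFR and -0.017 for UGT78D2. On OsRLCK253 array 2, DFR, UF3GT and AT4G14090 were above by 0.22 to 0.39, with UGT78D2 at -0.070. Over the 9 arrays the Pearson correlation of these deviations was 0.93 for DFR with UF3GT, 0.93 for DFR with AT4G14090 and 0.90 for UF3GT with AT4G14090. It was 0.65 to 0.77 between UGT78D2 and the other 3. These are descriptions over 9 arrays, and on each array all genes share the same RNA preparation and labelling. The spike-in mean was 9.80 on wild type array 2 against 10.02 on each of the other wild type arrays, and 9.94 on OsRLCK253 array 3 against 9.70 and 9.73. On OsSAP11 arrays 1, 2 and 3 it was 9.73, 9.67 and 9.72. The part of the spike-in levels in the deviations was not tested.

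**Figure D3:**
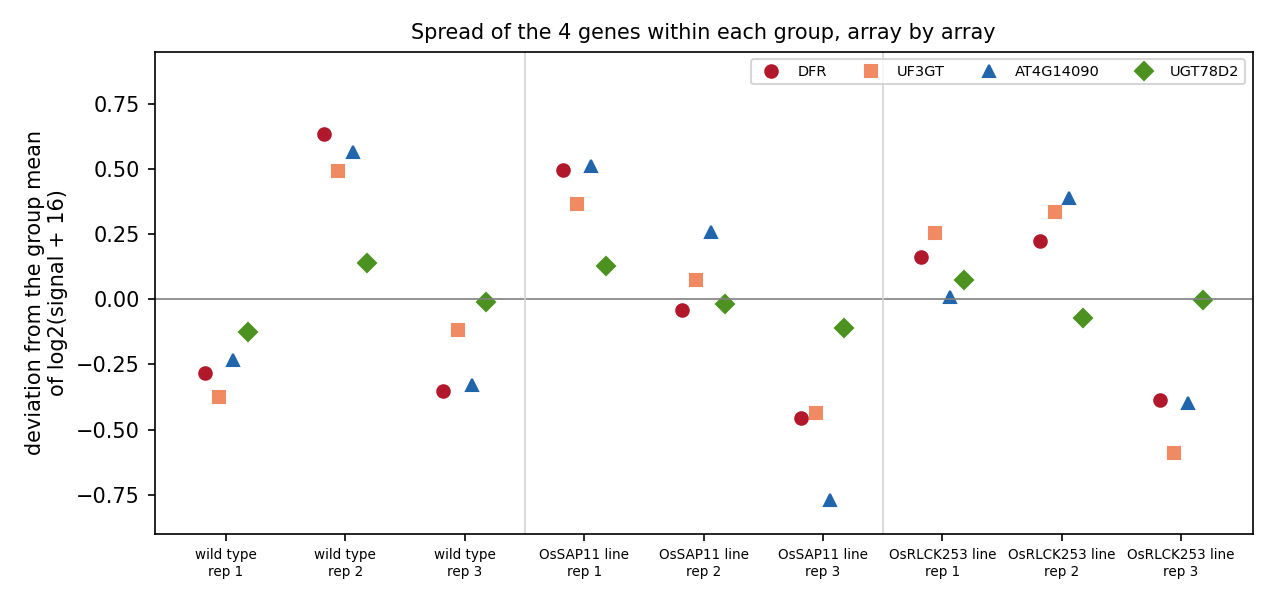
Deviation of log2(signal + 16) from the mean of its own group for the 4 genes, on each of the 9 arrays. All 4 genes lie above 0 on wild type array 2 and OsSAP11 array 1 and below 0 on OsSAP11 array 3, and UGT78D2 stays within 0.14 of its group mean throughout.

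The rest of the pathway was covered by few probe sets that name 1 gene. Of 54 genes in 7 lists from phenylpropanoid enzymes to regulators, 11 were named alone by a probe set, namely the 4 genes above and 7 others. Only these 11 are called measured here. The other listed genes may lie among the 8730 probe sets without a name or those that name several genes. Of the other 7, 1 rose in the OsSAP11 line, against 7.44% of all probe sets, and none fell, against 5.17%. In the OsRLCK253 line 4 rose, against 6.95%, and none fell, against 6.85%. Those 4 were CHIL, UGT78D1, AT1G06000 and TRY, the last from the list of repressors and not an enzyme gene. The median log2 difference of the 7 was 0.36 for the OsSAP11 line and 1.25 for the OsRLCK253 line, against -0.0021 and 0.014 for all probe sets. The lists were also chosen with earlier results of these data known, so these counts and medians are descriptions only. In the early part of the pathway only CHIL was measured, which encodes a chalcone isomerase-like protein that aids the first steps of flavonoid synthesis. CHIL had signals of 42.9, 58.7 and 38.0 in wild type. The OsSAP11 line had 76.2, 76.6 and 43.3, and the OsRLCK253 line 151, 127 and 118. The latter stood apart from both other groups, which overlapped. Of all probe sets, 34.0% had every OsRLCK253 array above wild type and 37.5% had every OsSAP11 array below the OsRLCK253 line. Between the lines CHIL had a log2 difference of -0.89 (limma adjusted p = 0.0621), which was not called. CHIL rose by 1.25 on the log2 scale in the OsRLCK253 line (limma adjusted p = 0.0101), and its difference in the OsSAP11 line was 0.36 (adjusted p = 0.365).

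Among the late genes, AT5MAT encodes an acyltransferase that adds malonyl groups to anthocyanin sugars. It was dim, with 4.79, 7.33 and 6.25 in wild type, against 21.2, 9.89 and 10.02 for OsSAP11 and 25.9, 47.6 and 11.8 for OsRLCK253. Both lines lay above wild type on every array, a pattern shared by 17.8% (OsSAP11) and 34.0% (OsRLCK253) of all probe sets. The arrays within each line were widely spread. The log2 differences of 0.41 (limma adjusted p = 0.521) and 0.93 (adjusted p = 0.0947) did not pass. In the OsRLCK253 line AT5MAT was called with 1 added in place of 16, where the difference was 1.86, with weights per array (1.35), with spike-in centring (1.08) and without OsRLCK253 array 3 (1.22).

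The listed enzymes that decorate flavonols included 3 measured genes. UGT78D1, a close relative of UGT78D2 that attaches rhamnose to flavonols, had signals of 303, 284 and 314 in wild type, 846, 700 and 582 for OsSAP11 and 1033, 1074 and 1089 for OsRLCK253. The 3 groups were separate and in the same order as for the 4 genes. Of all probe sets, 17.8% had every OsSAP11 array above wild type and 34.0% every OsRLCK253 array. The OsSAP11 line lay below the OsRLCK253 line on all arrays in 37.5%. UGT78D1 rose by 1.18 on the log2 scale with OsSAP11 (95% interval 0.89 to 1.47, limma adjusted p = 0.00224) and by 1.77 with OsRLCK253 (1.48 to 2.07, adjusted p = 0.000385). The interval in the OsSAP11 line does not meet that of UGT78D2 in the same line, 0.075 to 0.48, and the difference between the changes of the 2 genes was not tested. Between the lines UGT78D1 had a log2 difference of -0.59 (limma adjusted p = 0.0448), which was lost in 8 of the 9 fits that left out 1 array (all but OsSAP11 array 1), with adjusted p up to 0.119 and differences from -0.61 to -0.46 where it was lost. AT1G06000, from the list of flavonol-decorating enzymes, had means of 228 ± 30.6 (SD, n = 3), 352 ± 48.2 and 639 ± 103 in wild type, the OsSAP11 line and the OsRLCK253 line. It rose by 1.42 in the OsRLCK253 line (limma adjusted p = 0.00229), while 0.59 in the OsSAP11 line did not pass (adjusted p = 0.0613), although it did in 8 of the 20 alternatives, at 0.54 to 0.83. Its difference between the lines, -0.83, had adjusted p = 0.0371. That call was lost in 7 of the 9 fits, namely without any 1 of the 3 OsSAP11 arrays, OsRLCK253 array 1 or 2, or wild type array 1 or 2, with differences from -0.91 to -0.72. UGT78D3, another member of the subfamily that adds arabinose to flavonols, was dim on all 9 arrays, at 6.31 to 9.50.

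BAN encodes anthocyanidin reductase, which diverts anthocyanidins to the tannins of the seed coat. Its signal was 3.69 to 3.84 on all 9 arrays, near the bottom of the scale. Of the 12 activators listed none was named alone by a probe set, and of the 8 repressors only TRY was. TRY encodes a small single-repeat MYB protein known for blocking trichome formation. TRY had signals of 23.7, 13.9 and 24.2 in wild type and 25.0, 19.6 and 18.3 in the OsSAP11 line, where the 2 groups overlapped, and 89.3, 107 and 111 in the OsRLCK253 line. It rose by 1.70 on the log2 scale in the OsRLCK253 line (95% interval 1.37 to 2.03, limma adjusted p = 0.00068), with a difference of 0.024 in the OsSAP11 line. Between the lines its difference was -1.68 (adjusted p = 0.00411), a call kept in every alternative. One alternative leaves out probe sets that are dim in the mean of all 9 arrays. TRY passed that filter only through its OsRLCK253 arrays, so that fit adds no separate support.

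**Figure D4:**
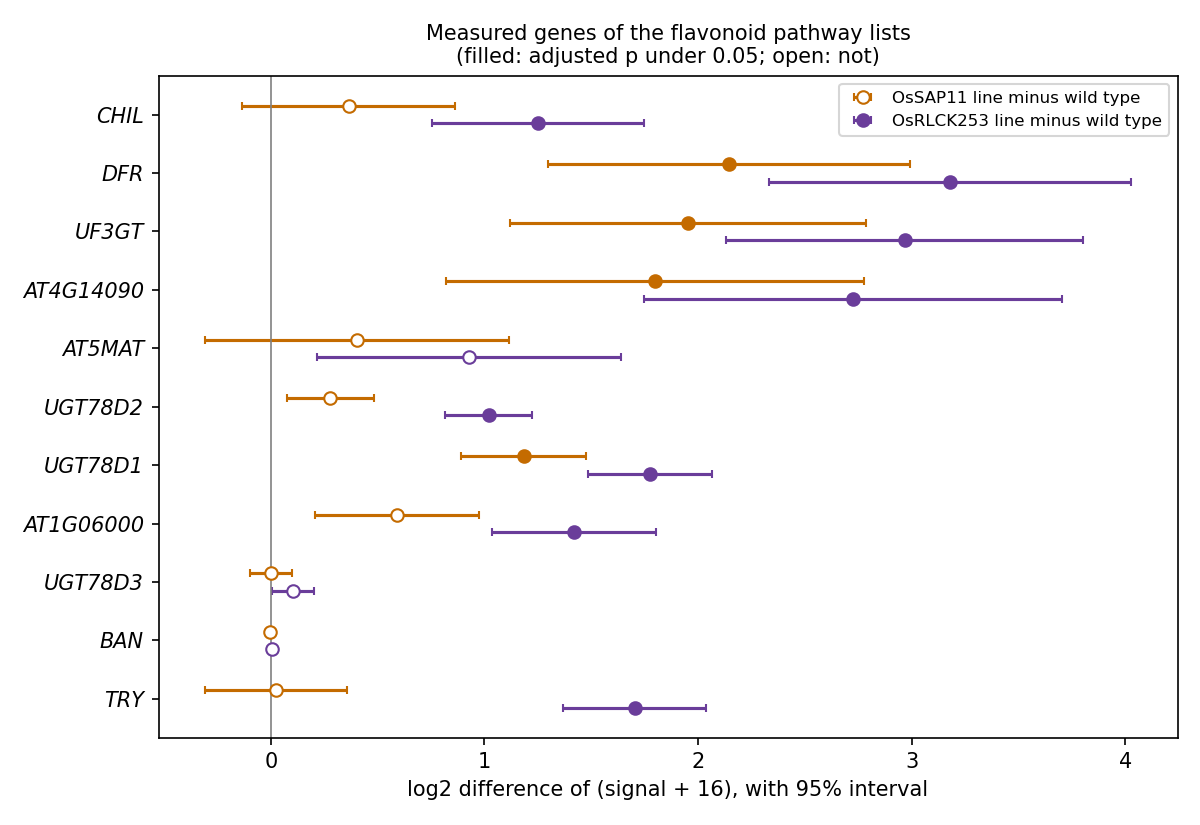
Log2 difference of (signal + 16) from wild type, with 95% intervals from limma, for the 11 measured genes of the pathway lists in the OsSAP11 line and the OsRLCK253 line, where filled points have an adjusted p under 0.05. DFR, UF3GT and AT4G14090 have the 3 largest differences in each line, while UGT78D3 and BAN, both dim, lie close to 0.

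Genes with the most similar profile were sought among 5928 probe sets that name 1 gene and pass a signal filter. The highest group mean had to reach the median of the highest group means of all probe sets. The measure was the Pearson correlation of log2(signal + 16) over the 9 arrays, and it is given as a description. The 4 genes themselves correlated with each other at 0.99 for each pair of DFR, UF3GT and AT4G14090 and at 0.87 to 0.89 between UGT78D2 and the other 3. The nearest profiles to DFR were AT3G48460 (0.989), EXLB1, an expansin-like gene (0.985), and SAMDC, which encodes S-adenosylmethionine decarboxylase of polyamine synthesis (0.985). The same 3 genes were nearest to UF3GT, at 0.977 to 0.985. AT3G48460 (0.979) and EXLB1 (0.972) were also among the nearest to AT4G14090, with AT2G20280 (0.974). Mean signals of EXLB1 in wild type, the OsSAP11 line and the OsRLCK253 line were 219 ± 26.1 (SD, n = 3), 555 ± 105 and 822 ± 99.8. A correlation does not measure the size of a change. The folds in the OsSAP11 line and the OsRLCK253 line were 2.42 and 3.57 for EXLB1 and 1.60 and 2.00 for AT3G48460. They were 1.37 and 1.58 for SAMDC and 1.17 and 1.24 for AT2G20280. UGT78D2 had other nearest profiles, AT5G42760, NDB2, a mitochondrial NAD(P)H dehydrogenase gene, and AT1G66130, at 0.966 to 0.974. Mean signals of AT5G42760 in wild type, the OsSAP11 line and the OsRLCK253 line were 14.8 ± 1.01 (SD, n = 3), 30.3 ± 10.3 and 113 ± 10.4. Only the OsRLCK253 mean brought AT5G42760 past the signal filter, so its place among the nearest profiles depends on that group. The folds of AT5G42760 in the OsSAP11 line and the OsRLCK253 line were 1.48 and 4.16. NDB2 had 1.15 and 1.57, and AT1G66130 had 1.07 and 1.28.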

How the data were processed

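Biotin-labelled cRNA of 9 samples was hybridised to 1 Affymetrix array each. The deposited values are intensities, 1 linear signal per probe set and array. GCOS is the software named, per the submitters' processing notes. How probes were summarised, background-corrected and scaled is not given in these sources. The 64 control probe sets were left out, and 22746 were tested with no filter, of which 13513 name 1 gene, 503 name several and 8730 have no name in the platform annotation. For 13436 of the 13513 a RefSeq entry (TAIR10.1) was found, and it gave names and gene order. Array medians differed by 0.0777 on the scale of log2(signal + 16) (0.106 with nothing added), and no further scaling was applied.

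Group means were estimated from all 9 arrays in 1 linear model by limma 3.58.1 (R 4.3.3) with empirical Bayes moderation (6 residual and 0.773 prior degrees of freedom). The p-values are two-sided, and the steps were tested on simulated data. Errors are the SD of 3 arrays for signals and the 95% interval of the model for log2 differences. The number of arrays limits the precision. The named genes are the 4 genes, every measured gene of the pathway lists, and the 3 most similar profiles per gene. The 4 genes and the lists were chosen with earlier results of these data known. Over 9 pairs of same-numbered arrays, deviations of all probe sets from group means correlated at -0.13 to 0.18, so replicate numbers were not taken to pair arrays. Alternatives were quantile normalization, median centring, 1 or 32 in place of 16, leaving out dim probe sets, fitting 2 groups alone, a robust prior with a trend, array weights, a replicate block, no shared spread, and each array left out in turn. Centring on hybridisation spike-ins was added after the data were seen.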

Additional observations from a re-analysis of the deposited data

Results flagged for a closer look

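The 2 lines differed from each other, by the limma test of the difference itself, for 4 of the 11 measured pathway genes, and each was lower in the OsSAP11 line, as were 1.87% of all probe sets. UGT78D2 had a log2 difference of -0.74, with all 3 arrays of the OsSAP11 line below those of the OsRLCK253 line, as for 37.5% of all probe sets. UGT78D1 had -0.59, AT1G06000 had -0.83 and TRY, from the list of repressors, had -1.68. UGT78D2 and TRY kept this call in every alternative tried, while UGT78D1 lost it in 8 and AT1G06000 in 7 of the 9 fits that left out 1 array. TRY passed the filter on dim probe sets only through its OsRLCK253 arrays. UGT78D1 and AT1G06000 also lost the call between the lines with 2 groups alone, and UGT78D1 with the replicate block and with no shared spread.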

How the results depend on the processing

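The 12 differences of the 4 genes were recomputed under 20 alternatives, and of 240 values 224 kept their direction and their side of the threshold, 11 lost the call, 5 gained one and 0 changed direction. DFR kept its calls in both lines. In the OsSAP11 line UF3GT ranged from 1.76 to 2.20 with 1 array left out and lost its call in 3 of these fits. AT4G14090 ranged from 1.54 to 2.18 there and lost its call in 5, and it was also not called with 2 groups alone (1.80), array weights (1.57) or no shared spread (1.80). UGT78D2 in the OsSAP11 line was 0.52 and called with spike-in centring. Between the lines DFR was called at -1.03 with the filter on dim probe sets and at -1.23 with array weights, and UF3GT at -1.01 and -1.30. The filter tests 11373 probe sets in place of 22746, and with it the standard error also fell from 0.36 to 0.28 for DFR and from 0.35 to 0.28 for UF3GT. The cause of the losses and gains was not tested.

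For the OsSAP11 line against wild type the count was 2869, 1827 to 2875 with 1 array left out (1863, 1887 and 1827 without OsSAP11 array 1, OsSAP11 array 2 or wild type array 1) and 5854 with spike-in centring. For the OsRLCK253 line it was 3138, 2040 to 3387 with 1 array left out (2040 without wild type array 1) and 5694 with array weights. Between the lines it was 1185, 449 to 1388 with 1 array left out (564, 485 and 449 without OsSAP11 array 1, 2 or 3), 1862 with the filter, 609 with 2 groups alone, 1809 with a trend and a robust prior, 5201 with array weights and 639 with the replicate block. Spike-in centring moved the share of calls that were higher from 59.0% to 87.5% in the OsSAP11 line, from 50.4% to 74.4% in the OsRLCK253 line (61.2% with array weights) and from 64.1% to 78.3% between the lines. Between the lines this share was 50.5% with median centring, and under 50% with a trend and a robust prior (49.8%), without OsRLCK253 array 1 (48.6%), with no shared spread (45.5%) and with array weights (38.3%). Spike-in centring moved the median of all probe sets to 0.24, 0.17 and 0.069.

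Of the 9 arrays, 5 correlated best with an array of their own number. With the replicate block no call of the 4 genes changed, and UGT78D2 between the lines had adjusted p = 0.0428 by limma. With it, UGT78D1 between the lines lost its call and AT1G06000 in the OsSAP11 line gained one. Of 411 values of the other 7 pathway genes, 360 kept direction and side, 19 lost a call, 23 gained one and 9 changed direction, none of them called. UGT78D3 in the OsSAP11 line was -0.017 with median centring, -6.7e-05 with array weights and -0.0059 to 0.0053 with 1 array left out. BAN became 0.24 in the OsSAP11 line and 0.075 between the lines with spike-in centring, and -0.0015 in the OsRLCK253 line and 0.00085 between the lines with quantile normalization. TRY in the OsSAP11 line ranged from -0.12 to 0.099 with 1 array left out. UGT78D3, BAN and AT5MAT have no value under the filter. Signals near or under 16 limit the folds of UF3GT, AT5MAT and TRY.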

Other observations

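Genes that lie beside the 4 genes on the chromosome were looked up in the RefSeq gene order after the data were seen, up to 2 protein-coding genes on each side. UGT78D2 stands in a row with AT5G17040 and UGT78D3. Mean signals of AT5G17040 were dim in wild type, the OsSAP11 line and the OsRLCK253 line, at 6.26 ± 0.183 (SD, n = 3), 7.20 ± 1.56 and 6.66 ± 0.292, and in the same order UGT78D3 had 6.41 ± 0.0262, 6.43 ± 0.193 and 8.11 ± 1.52. AT5G17070, on the other side of UGT78D2, had 171 ± 19.3, 160 ± 9.61 and 133 ± 33.2. Beside DFR, U2AF35B, a splicing factor gene, had 353 ± 6.53, 329 ± 26.3 and 315 ± 14.3. Beside AT4G14090, AT4G14100 had 190 ± 21.3, 235 ± 22.8 and 198 ± 15.9, and beside UF3GT, AT5G54050 had 6.19 ± 0.136, 6.05 ± 0.148 and 6.81 ± 0.476.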
